A study of Mus musculus with 576 samples.

Results

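The genes described here are 41 genes whose products copy DNA or make its building blocks. They were taken by symbol from a table of 49466 genes, all 41 were found, and all 41 were among the 20040 genes that passed the filter on low counts. They were sorted by role into origin licensing (Orc1, Orc6, Cdc6, Cdt1), the MCM helicase ring (Mcm2 to Mcm7), helicase activation (Mcm10, Cdc45 and the GINS subunits Gins1 to Gins4), the sliding clamp and its loader (Pcna, Rfc1 to Rfc5), DNA polymerase alpha-primase (Pola1, Pola2, Prim1, Prim2), DNA polymerases delta and epsilon (Pold1, Pold2, Pold3, Pole, Pole2), single-strand binding (Rpa1, Rpa2, Rpa3), Okazaki fragment joining (Fen1, Lig1) and nucleotide supply (Rrm1, Rrm2, Tyms, Tk1, Dut). The cells came from C57/Bl6J mouse fetal liver at embryonic day 14.5 and were sorted to enrich burst-forming unit-erythroid (BFU-E) cells, early committed progenitors of red cells. The groups were cells grown with 100 nM dexamethasone, a synthetic glucocorticoid, for 24, 48 or 72 hours (days 1, 2 and 3), and control cells grown without it for the same times. Stem cell factor (100 ng/mL), erythropoietin (2 U/mL) and insulin-like growth factor 1 (40 ng/mL) were in the medium of every group, controls included. Polyadenylated RNA was sequenced from single cells in 96-well plates, with 1 plate for each of the 6 groups.

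Chromosome copying starts when the origin recognition complex, Cdc6 and Cdt1 load the MCM ring onto DNA. Mcm10, Cdc45 and GINS then turn the ring into a running helicase, primase lays down primers, and the polymerases extend them behind the PCNA clamp while RPA coats the exposed single strands. Ribonucleotide reductase, thymidylate synthase, thymidine kinase and dUTPase supply the deoxynucleotides. Many of these genes are transcribed late in G1 and in S phase under E2F factors, and erythroid progenitors divide repeatedly while they mature. Glucocorticoids are known to delay that maturation and to extend the divisions of early progenitors.

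The 563 wells kept as cells comprised 94, 92 and 94 dexamethasone cells on the successive days, against 94, 96 and 93 control cells. Summed plates held between 88.2 and 116.6 M (mega) gene counts, and the median kept cell of a plate between 922603 and 1244026. The erythroid genes Kit, Tfrc, Gata1, Epor, Klf1 and Cd24a had counts on every plate, while Slc4a1, a late red cell membrane gene, was at 0 on the dexamethasone plate of day 1. Markers of erythroid stage moved with treatment and day. Kit, the stem cell factor receptor of early progenitors, was at 508, 761 and 279 CPM with dexamethasone on days 1 to 3 and 319, 133 and 47.6 CPM in control. Tfrc, the transferrin receptor, was at 783, 1474 and 1592 CPM with dexamethasone on days 1 to 3 and 1358, 3719 and 4980.1 CPM in control. Cd24a was higher with dexamethasone on day 1 (857 CPM, against 662.5 CPM in control) and lower on days 2 and 3. Slc4a1 reached 445 CPM with dexamethasone on day 3, against 3246 CPM in control. Their part in the results below was not tested. Cells with at least 2 neutrophil or monocyte markers at 10 CPM (counts scaled to the library total) or more numbered 10, 5 and 9 with dexamethasone and 15, 0 and 11 in control. The summed level of that 12-gene list was 336 to 592 CPM on dexamethasone plates and 3.64 to 1834 CPM on control plates, so the control plate of day 2 stands apart with 8 of the 12 genes at 0, Elane, Ctsg and Lyz2 among them. The plate fits and the cell scores below were computed with and without these cells. The summed megakaryocyte markers (7 genes) were at 254 to 401 CPM with dexamethasone and 83.3 to 302 CPM in control. Summed mast cell and basophil markers (6 genes) were at 15.7, 132.63 and 1.71 CPM with dexamethasone on days 1 to 3. In control they were at 30.4, 0 and 32.995 CPM. Summed macrophage markers (6 genes) were at 0.385 to 3.0035 CPM with dexamethasone and 0.00883 to 7.31 CPM in control. Among the macrophage markers the 3 C1q genes were at 0 on all 6 plates, while Adgre1 was at 6.99 CPM in control on day 3. Nothing in the labels says that plates came from separate cultures or animals, so the p-values reflect variation among these 6 plates only, and that variation may be technical. Plate and group coincide within a day, where a plate effect and a treatment effect cannot be told apart. Tags in the column names also run in separate blocks for control and dexamethasone plates, and what they stand for is not stated. An effect of such a block cannot be told apart from treatment, on single days or over the 3 days.

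The promoters of members from different roles are shown because the members varied together from cell to cell, as described below, and because E2F sites are a known feature of replication genes. RefSeq windows from 250 bases before to 50 bases after the start (build GRCm38.p6) were matched for 34 of the 41 members. For 34 of the 39 matched windows, bases after the start were found in a GENCODE transcript of the gene. The Mcm5 and Mcm6 windows, printed below, were among those where they were not found. The first 4 sequences have a perfect match to an E2F octamer, searched on both strands as TTTCGCGC, TTTGGCGC, TTTCCCGC or TTTGCCGC. Rrm2 and Rpa3 have the CCAAT box without that octamer, and Dut has neither. Rrm2 had the lowest fitted dexamethasone difference of the 41, and Rpa3 and Dut were the members with a difference above 0. Capitals mark the bases of an E2F or CCAAT match on either strand, and each run is the 180 bases before the start, read 5′ to 3′ on the gene's own strand.
Cdc6 promoter, chr11:98907971-98908150, plus strand: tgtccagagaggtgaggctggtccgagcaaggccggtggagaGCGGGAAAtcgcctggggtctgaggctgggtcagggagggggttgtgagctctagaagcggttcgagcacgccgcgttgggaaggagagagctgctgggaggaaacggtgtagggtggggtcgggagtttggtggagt
Orc1 promoter, chr4:108579274-108579453, plus strand: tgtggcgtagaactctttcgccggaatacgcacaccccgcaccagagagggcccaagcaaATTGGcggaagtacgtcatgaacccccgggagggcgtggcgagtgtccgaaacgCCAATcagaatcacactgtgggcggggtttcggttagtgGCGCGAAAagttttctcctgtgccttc
Mcm5 promoter, chr8:75109329-75109508, plus strand: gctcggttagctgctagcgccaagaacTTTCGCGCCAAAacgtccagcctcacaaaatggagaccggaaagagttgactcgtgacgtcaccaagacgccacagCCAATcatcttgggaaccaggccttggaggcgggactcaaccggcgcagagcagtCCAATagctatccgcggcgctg
Mcm6 promoter, chr1:128359706-128359885, minus strand: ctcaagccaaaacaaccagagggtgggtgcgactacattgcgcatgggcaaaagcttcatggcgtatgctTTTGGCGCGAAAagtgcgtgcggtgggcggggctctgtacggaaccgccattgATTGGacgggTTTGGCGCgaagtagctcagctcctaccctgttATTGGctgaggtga
Rrm2 promoter, chr12:24708074-24708253, plus strand: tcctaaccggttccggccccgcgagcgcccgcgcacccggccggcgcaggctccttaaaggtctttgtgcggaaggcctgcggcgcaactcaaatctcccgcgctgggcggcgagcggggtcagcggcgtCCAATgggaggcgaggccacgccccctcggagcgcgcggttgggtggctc
Rpa3 promoter, chr6:8259142-8259321, minus strand: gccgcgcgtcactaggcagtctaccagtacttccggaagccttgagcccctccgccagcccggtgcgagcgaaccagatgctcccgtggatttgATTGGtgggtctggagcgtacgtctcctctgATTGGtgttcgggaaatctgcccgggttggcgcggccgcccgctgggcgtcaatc
Dut promoter, chr2:125247335-125247514, plus strand: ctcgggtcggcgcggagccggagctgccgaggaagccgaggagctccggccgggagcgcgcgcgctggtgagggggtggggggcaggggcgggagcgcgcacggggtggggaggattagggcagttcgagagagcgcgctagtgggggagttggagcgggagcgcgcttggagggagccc

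An E2F octamer was present in the windows of 14 of 34 members (41.2%), against 4.49% of 10545 tested protein-coding genes and 6.46% of the 3435 of these averaging 50 CPM or more. The 14 were Cdc6, Cdt1, Gins3, Lig1, Mcm3, Mcm5, Mcm6, Mcm7, Orc1, Pola1, Pold1, Pold3, Pole2 and Rfc3. CCAAT stood in the windows of 21 members (61.8%), against 42.9% of all tested genes and 43.99% of those at 50 CPM or more. The GC box GGGCGG was in 26 (76.5%), against 66.2% and 72.5%. The cell cycle element TTTGAA was in 5 members (14.7%), against 14.4% and 15.1%. The glucocorticoid response element in palindromic form (GNACA, 3 free bases, TGTNC) was in none of the 34 member windows and in 0.351% of all tested genes. Of the 20 E2F matches in member windows 1 shared bases with a CCAAT match. Members with an E2F octamer had a median log2 fold change for dexamethasone of -0.49 and those without one -0.43. Such matches are descriptions of letters in this window only. Mcm4, Gins1, Gins2, Gins4, Rfc2, Prim2 and Pole had no matched window.

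The first comparison asks how the glucocorticoid alters the replication genes of erythroid progenitors. On day 1 alone 27 members were lower with dexamethasone and 14 higher. Over the 3 days together nearly all members stood lower, from the licensing factors to ribonucleotide reductase. Their summed level with dexamethasone was lowest on day 2, though members such as Mcm2, Mcm10 and Rrm1 had their lowest dexamethasone plate on another day. The sum was 12486, 9249.6 and 10472 CPM with dexamethasone on days 1, 2 and 3, against 14565, 15422 and 15275 CPM in control. Each dexamethasone plate thus lay under each control plate in this sum. The median mitochondrial share of counts per cell also moved with treatment, at 3.93%, 4.61% and 5.69% with dexamethasone and 3.91%, 3.47% and 3.38% in control. Median genes with a count per cell were 8923.5, 8829 and 8520.5 with dexamethasone and 8119, 7556 and 6961 in control, and the part of either in the result was not tested. Over the 3 days together the median log2 fold change of the members was -0.45, beside 0.07 for all 20040 genes and -0.07 for the 4329 genes averaging 50 CPM or more, where 40 of the members lie (Gins3 is below). By sign, 39 of 41 members were lower, where 44.9% of all tested genes and 57.6% of those at 50 CPM or more were. Rpa3 and Dut were the exceptions.

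No member reached an adjusted p of 0.05 in edgeR's quasi-likelihood test of 3 dexamethasone against 3 control plates, and 0% of all 20040 genes did. At an unadjusted p under 0.05 the same edgeR test gave 17 members as lower and 0 as higher, where 5.82% of all genes and 15% of those at 50 CPM or more were lower. DESeq2 called 12 members lower at an adjusted p of 0.05 and 0 higher, against a background of 4.47%, or 9.63% at 50 CPM or more. These were Cdc6, Mcm2, Mcm3, Mcm4, Mcm6, Mcm7, Mcm10, Rfc1, Rpa1, Lig1, Rrm1 and Rrm2. With edgeR among the genes at 50 CPM or more, 0.3% were called lower and none of them was a member. The spread in this fit also holds any change of the difference over the days. In 17 members all 3 dexamethasone plates lay below all 3 control plates, where 5.44% of all genes and 11.1% of those at 50 CPM or more did so. These 17 were Orc1, Cdc6, Mcm2, Mcm4, Mcm6, Mcm7, Mcm10, Gins1, Gins3, Rfc1, Pole2, Rpa1, Fen1, Lig1, Rrm1, Rrm2 and Tk1. No member had all dexamethasone plates above all control plates. The share of all genes that did is not given here, so this cannot be read as particular to the members. On 3 of 3 days 27 members were lower, beside 16.2% and 29.8%. Leaving out either plate of day 2 moved the median of the members to -0.25, so its size depends on that day.

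**Figure D1:**
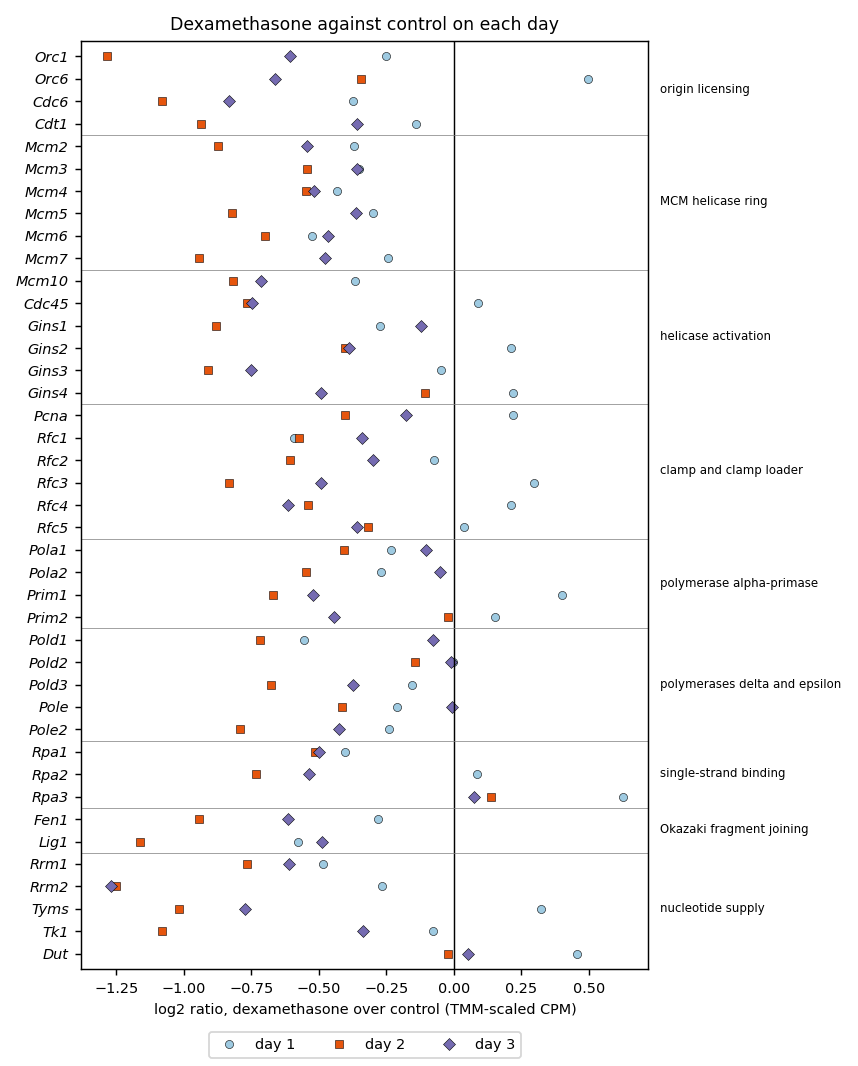
Log2 ratios of TMM-scaled CPM, dexamethasone over control, for the 41 genes on each day, grouped by role. Circles (day 1) straddle 0 with a median of -0.21, squares (day 2) and diamonds (day 3) lie almost all left of 0, and each symbol is 1 plate against 1 plate with no test.

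Within single days, where 1 plate faces 1 plate and no test can be made, the difference was small on day 1 and larger later. Median member log2 ratios for the 3 days were -0.21, -0.70 and -0.47, while genes at 50 CPM or more had medians of -0.06, -0.09 and -0.07. Lower by sign were 27, 40 and 39 of the 41 members. Of the 4329 genes at 50 CPM or more, 2456, 2481 and 2396 were lower. Past 1.5-fold, 1 member was lower on day 1 (Rfc1, background 4.41% of genes at 50 CPM or more), 24 on day 2 (16.6%) and 11 on day 3 (15.3%). Past 1.5-fold in the other direction stood Rpa3 on day 1 (background 3.12%) and no member on day 2 or 3. The 11 of day 3 were Orc1, Orc6, Cdc6, Mcm10, Cdc45, Gins3, Rfc4, Fen1, Rrm1, Rrm2 and Tyms. Without the cells that carried neutrophil or monocyte markers the 3 medians were -0.20, -0.78 and -0.55.

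Exon length moved with the day 1 ratio. Across the 41 members Spearman's rho between annotated exon length and the log2 ratio came to -0.44, -0.11 and 0.03 for the 3 days. Across 4328 genes at 50 CPM or more it was -0.35, -0.10 and -0.09. These points share the same libraries. On day 1 the 20 members under the median length had a median ratio of 0.04 and the 21 others -0.27. In an alternative chosen after seeing the data, which subtracts the median of genes of similar exon length, the member medians were -0.08, -0.58 and -0.36, and 27, 38 and 36 members were below 0. The day 1 difference is thus smaller by more than 1.5 times on this scale, and the part of length in it was not tested further.

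**Figure D2:**
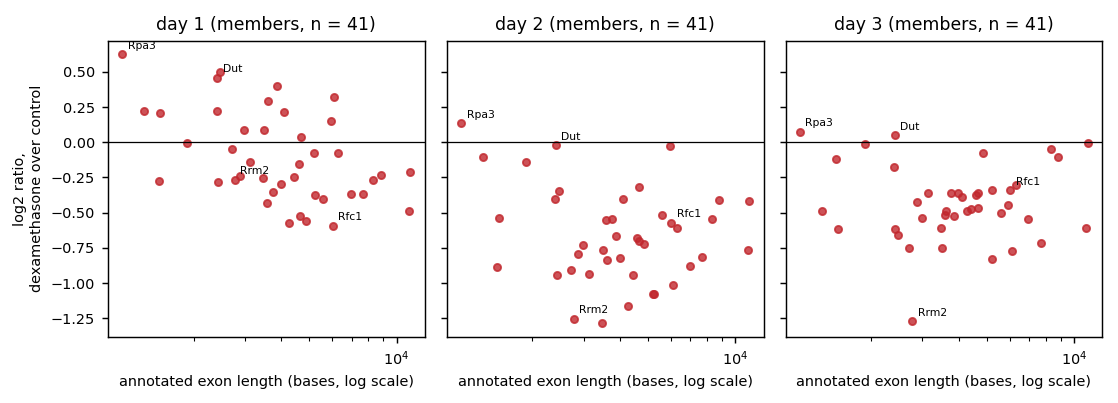
Log2 ratio of dexamethasone over control against annotated exon length (log scale) for the 41 genes, 1 panel per day. On day 1 the ratio tended to be lower at greater length (rho -0.44), with exceptions on both sides such as Gins1 (short, -0.27) and Tyms (long, 0.32), while rho was -0.11 and 0.03 on days 2 and 3.

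Among the licensing factors, Cdc6, the loader ATPase that recruits the helicase ring, was lower on every dexamethasone plate. With dexamethasone Cdc6 was at 186, 136 and 164 CPM on days 1 to 3, and in control at 241, 288 and 292 CPM. The groups did not overlap, and the fitted log2 fold change was -0.76 (SE 0.17, edgeR unadjusted p = 0.0102, adjusted p = 0.457). Cdt1 had 271, 169 and 178 CPM with dexamethasone on the 3 days and 298, 324 and 228 CPM in control. Cdt1, the escort of the MCM ring, overlapped between groups through the dexamethasone plate of day 1, which lay above the control plate of day 3. Orc6 stood at 262, 158 and 167 CPM with dexamethasone on days 1, 2 and 3, against 185, 201 and 264 CPM in control. Orc6, the smallest subunit of the origin recognition complex, was high with dexamethasone on day 1 and low later, with log2 ratios of 0.50, -0.34 and -0.66. Orc1, the largest subunit, had its lowest plate with dexamethasone on day 2, at 29.7 CPM against 72.3 CPM in control. Its day 2 log2 ratio of -1.28 was the lowest of the 41.

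The MCM ring, a hexamer of related ATPases that unwinds DNA, was lower in all 6 subunits on all 3 days. The role's summed level was 4478 CPM, 3311 CPM and 3512 CPM with dexamethasone, against 5808, 5523 and 4802 CPM in control. With dexamethasone Mcm6 was at 846, 624.5 and 684 CPM on days 1 to 3, and in control at 1217, 1013 and 945 CPM. Mcm6 had the highest mean CPM of the ring and did not overlap between the groups (log2 fold change -0.56, SE 0.11, edgeR unadjusted p = 0.00493, adjusted p = 0.457). Mcm2 had 759.5, 596 and 589 CPM with dexamethasone on the 3 days and 981, 1093 and 857 CPM in control. Mcm2 had the largest fitted difference of the ring, -0.60 (SE 0.14), again without overlap. Mcm3 stood at 849, 625 and 596 CPM with dexamethasone on days 1, 2 and 3, against 1082, 911 and 764 CPM in control. Mcm3 had its highest plate on day 1 and its lowest on day 3 in both arms, and its dexamethasone plate of day 1 stood above the control plate of day 3. With dexamethasone Mcm7 was at 621, 418 and 574 CPM on days 1 to 3, and in control at 735.5, 803 and 799 CPM. Mcm7 was close to level on the control plates and lowest on the dexamethasone plate of day 2. Mcm4 and Mcm5 had fitted differences of -0.50 (SE 0.10) and -0.49 (SE 0.15).

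Of the factors that switch the ring on, Mcm10, needed to start unwinding, showed the largest difference. Mcm10 had 168, 109 and 107 CPM with dexamethasone on the 3 days and 217, 192 and 176 CPM in control. All its dexamethasone plates lay below all control plates (log2 fold change -0.63, SE 0.14, edgeR unadjusted p = 0.00887). Cdc45 stood at 192, 136 and 141 CPM with dexamethasone on days 1, 2 and 3, against 181, 231 and 237 CPM in control. Cdc45, the helicase cofactor, was level on day 1 and split on days 2 and 3, with log2 ratios of 0.09, -0.77 and -0.75. With dexamethasone Gins4 was at 99.1, 79.9 and 94.7 CPM on days 1 to 3, and in control at 85.1, 86.1 and 133 CPM. The arms overlapped for Gins4, which differed by -0.13 (SE 0.18) over the days. The other GINS subunits, which sit beside Cdc45 in the running helicase, had fitted differences of -0.42 (Gins1), -0.19 (Gins2) and -0.57 (Gins3). About 67.3% of the annotated exon length of Gins2 lies opposite exons of Gse1 on the other strand, and the strand setting of the counting is not given in the sources used here.

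Pcna, the ring clamp that tethers polymerases, was among the members that differed least. Pcna had 425, 346 and 402 CPM with dexamethasone on the 3 days and 365, 458 and 455 CPM in control. It stood higher with dexamethasone on day 1 and lower on days 2 and 3, and its fitted difference of -0.12 (SE 0.16) is smaller than its SE. Rfc1 stood at 131, 140.1 and 119 CPM with dexamethasone on days 1, 2 and 3, against 197, 208 and 151 CPM in control. Rfc1, the large subunit of the clamp loader, was lower on each day without overlap (log2 fold change -0.50, SE 0.12, edgeR unadjusted p = 0.0106). With dexamethasone Rfc4 was at 183, 116 and 183.6 CPM on days 1 to 3, and in control at 158, 168.5 and 281 CPM. Rfc4, a small loader subunit, was higher with dexamethasone on day 1 only, and in control it was highest on day 3. Of the annotated exon length of Rfc4 12.65% lies opposite Eif4a2 on the other strand. Eif4a2 had 182655 counts over all plates beside 117656 for Rfc4, and the strand setting of the counting is not known. Rfc2, Rfc3 and Rfc5 had fitted differences of -0.33, -0.34 and -0.21.

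**Figure D3:**
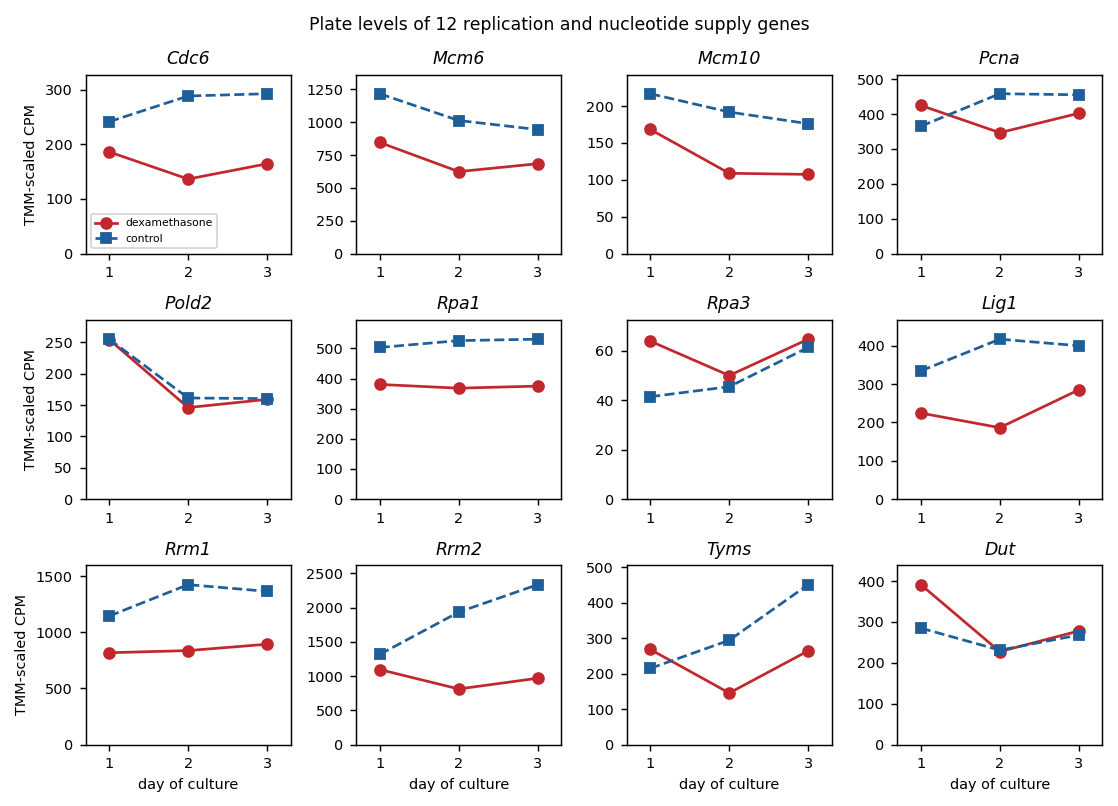
Plate levels (TMM-scaled CPM) of 12 of the genes on days 1, 2 and 3, with dexamethasone as red circles and control as blue squares, 1 plate per point. Cdc6, Mcm6, Mcm10, Rpa1, Lig1, Rrm1 and Rrm2 lie below control on all 3 days, Rpa3 lies above, and Pold2 has nearly the same level in both arms.

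DNA polymerase alpha-primase, which lays primers, had a role median of -0.26 for the fitted log2 fold change, where licensing had -0.59 and the MCM ring -0.53. The difference between roles was not tested. Pola2 had 245, 172 and 175 CPM with dexamethasone on the 3 days and 295, 252 and 181.5 CPM in control. Pola2, its regulatory subunit, was highest on day 1 in both arms, and the arms were close on day 3. Prim2 stood at 144, 146 and 146 CPM with dexamethasone on days 1, 2 and 3, against 129.9, 148 and 199 CPM in control. Prim2, the large primase subunit, was nearly constant with dexamethasone and highest in control on day 3. Pola1, the catalytic polymerase subunit, and Prim1, the catalytic primase subunit, had fitted differences of -0.25 (SE 0.12) and -0.27 (SE 0.25). None of the 4 separated the groups on all plates.

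Polymerases delta and epsilon extend the lagging and leading strands. With dexamethasone Pole2 was at 51.96, 37.5 and 42.4 CPM on days 1 to 3, and in control at 61.4, 64.8 and 56.9 CPM. Pole2, a polymerase epsilon subunit, was lower on every dexamethasone plate (log2 fold change -0.49, SE 0.17, edgeR unadjusted p = 0.0413). Pold2 had 254, 146 and 159 CPM with dexamethasone on the 3 days and 255, 161 and 160.2 CPM in control. Pold2, a polymerase delta subunit, had close values in both arms, and the fitted difference was -0.05 (SE 0.10). Pold1, the catalytic subunit of delta, Pold3 and Pole, the catalytic subunit of epsilon, had fitted differences of -0.45, -0.40 and -0.21.

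The 3 subunits of RPA, which bind as a trimer, gave different values. Rpa1 stood at 380.4, 368 and 375 CPM with dexamethasone on days 1, 2 and 3, against 503, 526 and 531 CPM in control. Rpa1, the large subunit, was lower by a similar amount on each day without overlap (log2 fold change -0.47, SE 0.10, edgeR unadjusted p = 0.00744). With dexamethasone Rpa2 was at 283, 153 and 207 CPM on days 1 to 3, and in control at 266, 254 and 300.5 CPM. Rpa2 was level on day 1 and lower afterwards, at log2 ratios of -0.73 and -0.54. Rpa3 had 63.97, 50.05 and 64.8 CPM with dexamethasone on the 3 days and 41.5, 45.5 and 61.4 CPM in control. Rpa3 was higher with dexamethasone on 3 of 3 days, with log2 ratios of 0.63, 0.14 and 0.08. Its fitted difference was 0.28 (SE 0.17, edgeR unadjusted p = 0.177), which did not pass the test, and at 1136 bases it is the shortest annotated transcript set of the 41. The difference between subunits was not itself tested.

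Lig1, the ligase that seals Okazaki fragments, was lower on all dexamethasone plates. Lig1 stood at 224.5, 186 and 285 CPM with dexamethasone on days 1, 2 and 3, against 335, 417 and 400.3 CPM in control. Its log2 fold change was -0.74 (SE 0.18, edgeR unadjusted p = 0.0117, DESeq2 adjusted p = 0.00658). With dexamethasone Fen1 was at 43.2, 36.3 and 40.9 CPM on days 1 to 3, and in control at 52.5, 69.8 and 62.5 CPM. Fen1, the flap nuclease that trims the fragments, also had no overlap (-0.61, SE 0.18, edgeR unadjusted p = 0.0261). Of its annotated exon length 78.8% lies opposite Gm10143 on the other strand, a gene with 4586 counts over all plates beside 32710 for Fen1, and without a known strand setting their reads cannot be told apart.

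In nucleotide supply the 2 subunits of ribonucleotide reductase had no overlap between the arms, while Tyms and Dut did overlap. Rrm2 had 1096, 812 and 969 CPM with dexamethasone on the 3 days and 1318, 1935 and 2337 CPM in control. Rrm2, the small subunit whose supply follows S phase, was highest in control on day 3 and lowest with dexamethasone on day 2. The fitted difference was -0.93 (SE 0.25, edgeR unadjusted p = 0.0179, DESeq2 adjusted p = 0.00508), the lowest of the 41. Rrm1, the large subunit, stood at 819, 838 and 894.5 CPM with dexamethasone and at 1146, 1426 and 1366 CPM in control, and had the smallest p of all members (edgeR unadjusted p = 0.00381, log2 fold change -0.62, SE 0.11). Tyms stood at 268, 145 and 264 CPM with dexamethasone on days 1, 2 and 3, against 215, 294 and 451 CPM in control. Tyms, which makes thymidylate, was higher with dexamethasone on day 1 and lower on days 2 and 3. With dexamethasone Dut was at 391, 227 and 278 CPM on days 1 to 3, and in control at 285, 231 and 268 CPM. Dut, the dUTPase, was higher with dexamethasone on day 1 and close to control afterwards, with a fitted difference of 0.16 (SE 0.14). Tk1, the cytosolic thymidine kinase, had a fitted difference of -0.50 (SE 0.23) and no overlap between arms. Per length, Rrm2 was the most abundant of the 41 with a mean of 1576 TPM over the 6 plates, followed by Mcm3 at 675 TPM, and Pole was the least at 24.3 TPM.

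Genes of the same pathways outside the 41 gave the following counts, from lists chosen with earlier results known. Of 35 other replication genes 31 were lower by sign over the 3 days, their median log2 fold change was -0.33, and none passed an adjusted p of 0.05 in edgeR. At an unadjusted p under 0.05 edgeR gave 12 of them as lower and 0 as higher, where 5.82% and 4.51% of all genes were, and DESeq2 called 5 lower at an adjusted p of 0.05 (background 4.47%). The lists hold mostly genes at 50 CPM or more, where the edgeR shares were 15% lower and 7.28% higher and the DESeq2 shares 9.63% lower and 2.96% higher. The largest differences were -0.86 for Donson, a replisome factor, -0.79 for Chtf18, part of an alternative clamp loader, -0.75 for Mtbp, an origin firing factor, and -0.75 for Top1, topoisomerase I. Of 36 other genes of nucleotide supply 18 were lower and 18 higher, with a median of -0.00. There edgeR gave 3 as lower and 7 as higher at an unadjusted p under 0.05, and DESeq2 called 2 in each direction. The 4 furthest from 0 were Mthfd2, a mitochondrial folate enzyme (-1.24), Dck, deoxycytidine kinase (-1.12), Aprt, the adenine salvage enzyme (0.87), and Shmt1, a cytosolic folate enzyme (0.65).

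The second comparison follows the members over the days of culture. In the fit over both arms, no member passed an adjusted p of 0.05 in edgeR for day 3 against day 1, nor for day 2 against day 1, and 0% of all genes did in either. At an unadjusted p under 0.05 edgeR gave 4 members as lower on day 3 (Mcm3, Mcm10, Pola2 and Pold2). On day 2 it gave 5 as lower (Mcm3, Mcm6, Gins2, Pold2 and Dut). No member was higher in either comparison. Of all genes, 7.47% were lower on day 3 and 6.04% on day 2. The shares at 50 CPM or more, where nearly all members lie, are not given for this test, nor are the shares called higher. These counts thus cannot be read as particular to the members. The DESeq2 backgrounds below are likewise over genes of any level. Under other settings Pold2 passed most often. It was called lower on day 3 by edgeR among genes at 50 CPM or more (background 5.66%) and by DESeq2 (background 5.79%, Mcm3 also called). DESeq2 also called it lower on day 2 (background 4.48%). Its log2 fold change was -0.67 (SE 0.13) on day 3 and -0.73 (SE 0.13) on day 2, and both arms had it highest on day 1.

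The courses of the arms are given as values, since 1 plate per point allows no test. In dexamethasone, 38 of 41 members were lower on day 2 than on day 1, as were 2454 of the 4329 genes at 50 CPM or more. The member median log2 ratio was -0.47, and 16 members passed 1.5-fold, where 13.6% of those 4329 genes did. In control, 16 members were lower and 25 higher on day 2, beside 2254 and 2075 of the 4329 genes. The member median was 0.08, and 1 member, Pold2, was lower past 1.5-fold (background 13.2%). From day 2 to day 3 with dexamethasone 35 members were higher, beside 2284 of the 4329 genes. The member median was 0.18, and Orc1, Rfc4, Lig1, Tyms and Tk1 passed 1.5-fold (background 8.39%). By day 3 the dexamethasone plate was below its own day 1 in 36 members, beside 2457 of the 4329 genes. The member median was -0.24, and 5 members passed 1.5-fold, namely Orc6, Cdt1, Mcm10, Gins2 and Pold2 (background 9.1%). Matched on exon length, that median was -0.14 with 33 members below 0. In control, day 3 lay above day 1 in 22 members and below in 19, beside 2074 and 2255 of the 4329 genes. The member median was 0.08, or 0.15 matched on exon length. There Gins4, Rfc4, Prim1, Prim2, Rrm2 and Tyms were higher past 1.5-fold (background 19.2%), and Pola2, Pold1 and Pold2 lower (background 20%). The direction of the control median is small beside the spread of the members, from -0.76 for Pold1 to 1.07 for Tyms.

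In a plate sum, fewer cells with a transcript and less of it per cell cannot be told apart, so the values of single cells are given next. At 600000 counts per cell Rpa1, Rrm1 and Rrm2 had a count in 100% of cells on every plate, while Gins3 had one in 52.9% to 65.9% of cells and Orc1 in 59.1% to 89.02%. Each cell was given a replication score, the mean of log2(CPM + 1) over the 41 genes. On day 1 the arms were close, with medians of 7.45 with dexamethasone and 7.49 in control and SDs over cells of 0.42 and 0.44. On day 2 the median was 6.82 with dexamethasone and 7.31 in control. On day 3 the medians were 6.93 with dexamethasone and 7.02 in control, a gap of -0.09, but the cells spread differently. That gap was -0.18 without the cells that carried neutrophil or monocyte markers and -0.16 with a pseudocount of 10 in the score. The upper quartile was 7.38 with dexamethasone and 7.67 in control, whereas the 10th percentile was 5.16 with dexamethasone and 2.31 in control, with SDs of 1.13 and 2.03. The lower quartile was 6.26 with dexamethasone and 5.48 in control, a gap of 0.78 that came to 0.16 without those marker-carrying cells and to 0.42 after thinning. The score gaps on days 1 to 3 were -0.01, -0.50 and -0.09 once every cell was thinned to 600000 counts and 49 shallower cells were left out.

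**Figure D4:**
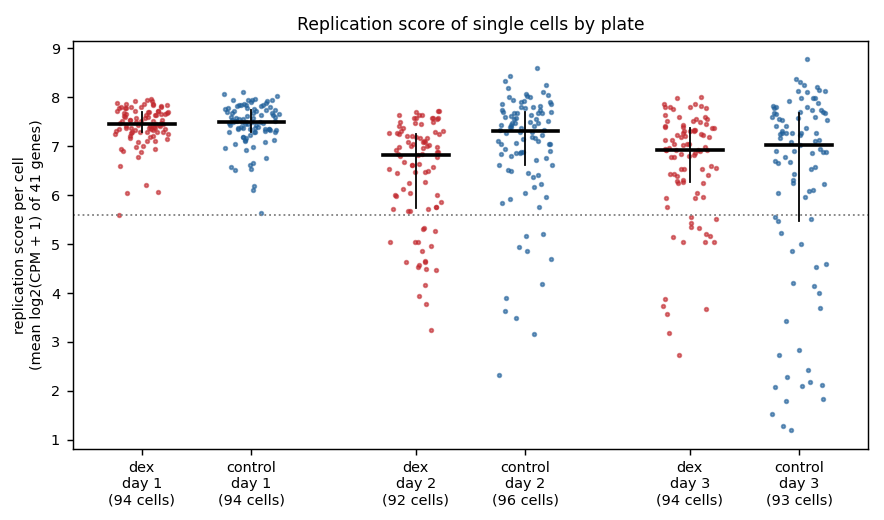
Replication score of each kept cell by plate, dexamethasone (dex) left of control on each day, with the median as a wide bar and the quartiles as a thin line. The dotted line is the lowest day 1 cell at 5.59, and cells below it appear on days 2 and 3 in both arms, down to 2.73 with dexamethasone and 1.20 in control.

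Cells with a score under 5.59, the lowest value on either day 1 plate, were counted on the later days. This limit was chosen after the values were seen and marks a range, not a cell type. On day 2 it held 19 of 92 dexamethasone cells (20.7%, exact binomial interval 12.9% to 30.4%) and 11 of 96 control cells (11.5%, 5.86% to 19.6%). On day 3 it held 17 of 94 dexamethasone cells (18.1%, 10.9% to 27.4%) and 26 of 93 control cells (27.96%, 19.1% to 38.2%). The intervals overlap on both days and cover counting error only. Within 0.25 of the limit lay 6 and 5 dexamethasone cells and 2 and 3 control cells. Of the low cells of day 3, 2 with dexamethasone and 8 in control carried neutrophil or monocyte markers. Without all such cells the shares were 21.8% and 17.6% with dexamethasone on days 2 and 3, against 11.5% and 21.95% in control. Scores under 4 were found in 3 and 6 dexamethasone cells on days 2 and 3, against 5 and 15 control cells. On day 3 low cells had a median of 7806 genes with a count against 8630 in the other cells with dexamethasone, and 5486.5 against 7224 in control.

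The members were not equally reduced in the low cells, which were chosen by these same genes, so the values are a description. Averaged over the 4 later plates, low cells held 9.75% of the other cells' mean CPM for Orc1, 12.1% for Pole, 15.5% for Cdc6 and 16.2% for Rpa2. At the other end they held 56.3% for Gins4, 54.1% for Rrm1 and 49.1% for Prim2. Rrm2 stood at 13.5% and 19.3% in low dexamethasone cells of days 2 and 3, against 64.8% and 37.6% in low control cells, a difference that was not tested.

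Within plates the members varied together from cell to cell. The mean Pearson r over the 820 member pairs was 0.13, 0.33 and 0.34 on dexamethasone plates of days 1 to 3 and 0.11, 0.35 and 0.51 on control plates. Its mean over the 6 plates was 0.29, beside 0.07 for all pairs of genes at 50 CPM or more. Cells of a plate share any plate effect and differ in depth, and the score itself had a mean r of 0.28 with log10 of the cell's total count. With the number of genes with a count the mean r was 0.34, and the highest plate was control day 3 at 0.75. Cell type markers moved with the score on day 1. For the megakaryocyte list r was -0.34 with dexamethasone and -0.53 in control, and for the lymphoid list -0.34 and -0.35. Of the 6 lymphoid genes 4 were at 0 on each day 1 plate. Cd79b had 4.43 of that list's 4.61 CPM with dexamethasone and 6.27 of 6.29 CPM in control. In the same order r was 0.12 and 0.45 for the erythroid list and -0.09 and -0.25 for the mast cell list. It was -0.19 and -0.17 for the neutrophil and monocyte list and 0.003 and 0.10 for the macrophage list. The part of these markers in the correlations was not tested. After thinning to 600000 counts the plate means were 0.11, 0.34 and 0.33 with dexamethasone and 0.08, 0.34 and 0.49 in control. The pairs within the MCM ring stood highest with a mean of 0.61 over 15 pairs, led by Mcm4 with Mcm6 at 0.70. Pcna with Rrm2 reached 0.64. Pairs within helicase activation averaged 0.19, and Gins3 with Pold2 was lowest at 0.01. Set against the mean of the other 40 members, Pcna (0.72), Rrm2 (0.71), Mcm5 (0.67) and Mcm6 (0.66) followed the list most closely, and Gins4 (0.30) and Gins3 (0.19) least. Gins3 was also the member with the fewest cells with a count.

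**Figure D5:**
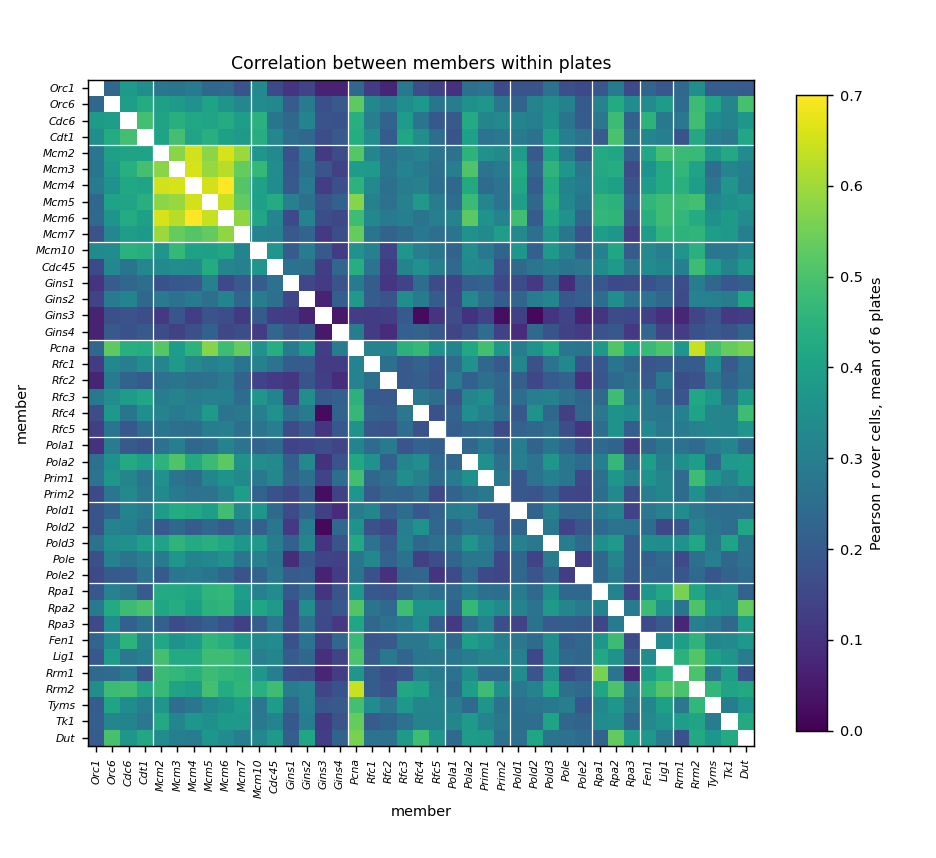
Pearson r between pairs of the 41 genes over the cells of a plate, averaged over the 6 plates, with white lines between roles. The block of Mcm2 to Mcm7 is the brightest (mean 0.61), Pcna and Rrm2 form bright rows across roles, and the rows of Gins3 and Gins4 are dark.

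On day 1 the sign of r differed among the pairs in both arms. Of the 820 pairs 485 had a positive r on both day 1 plates and 104 a negative r on both. This count was not made for other gene pairs, so it cannot be read as particular to the members. The day 1 mean r of member pairs was 0.13 with dexamethasone and 0.11 in control. Over all pairs of genes at 50 CPM or more it was 0.05 and 0.04. Mcm3 with Rpa3 had an r of -0.27 with dexamethasone and -0.27 in control, and Mcm3 with Dut had -0.10 with dexamethasone and -0.32 in control. Pcna with Dut, in contrast, had 0.50 with dexamethasone and 0.51 in control, and Cdc6 with Rrm2 had 0.60 with dexamethasone and 0.53 in control. Mcm2, Mcm3, Mcm4 and Mcm6 stayed together, with Mcm3 and Mcm6 at 0.62 with dexamethasone and 0.66 in control. Thinned values were not computed for single pairs, so the part of depth in these was not tested.

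The genes outside the 41 most like the score within plates, among 4329 genes at 50 CPM or more, were Slbp, the histone mRNA binding protein (mean r over 6 plates 0.68), Uhrf1, a DNA methylation maintenance factor (0.66), Ccne1, cyclin E1 (0.65), Tipin, a fork protection factor (0.64), and Nasp, a histone chaperone (0.62). Next came Slc29a1, a nucleoside transporter (0.59), Pclaf, a PCNA binding protein (0.59), Dtl, a ubiquitin ligase adaptor (0.58), Tuba1b, an alpha tubulin (0.58), and Nup85, a nuclear pore protein (0.58). All 10 had a fitted dexamethasone log2 fold change below 0, from -1.09 for Ccne1 to -0.14 for Nasp, where 57.6% of genes at 50 CPM or more did. The genes least like the score had values of both signs, such as -1.43 for Neat1 and 0.13 for Myl6. A value below 0 thus cannot be read as particular to genes like the score. Tipin and Slc29a1 also stand in the lists of other pathway genes above.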

How the data were processed

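The members and gene lists were chosen with earlier results of these data known. Reads were aligned with STAR 2.4 and counted with featureCounts on GRCm38, per the submitters' processing notes. No source used here gives the annotation release, the strand setting or the treatment of reads with several matches. The authors deposited raw gene counts per well, and no molecular identifiers are stated, so intervals cover counting error only. Of the columns 575 were matched to wells and 1 was not used. Wells with under 50000 counts, under 1500 genes or over 20% mitochondrial counts were left out (12 wells). Counts of kept wells were summed by plate, filtered to 20040 genes and tested with edgeR 4.0.16 (quasi-likelihood, TMM scaling, terms for day and dexamethasone, 2 residual degrees of freedom, Benjamini-Hochberg adjustment over all genes). The SE was the fold change over the square root of F. DESeq2 1.42.0 was an alternative. Log2 ratios of single plates used TMM-scaled CPM with a prior count of 2. Plate values are given, in each role, for the member with the highest mean CPM, those with the largest and smallest dexamethasone difference, and those with the largest rise and fall by day 3, and in addition for Rrm1. Named outside the members are the 4 of each other list with the largest difference and the 10 genes most like the score. TPM and exon lengths used GENCODE exons on GRCm38. The fits and the correlations were tested on simulated data. 1 marker gene of the erythroid list is not reported here.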

Additional observations from a re-analysis of the deposited data

Results flagged for a closer look

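In 13 members the log2 ratio of dexamethasone over control was above 0 on day 1 and below 0 on a later day. Each ratio is 1 plate against 1 plate, and the difference between days was not tested. The share of all genes that changed sign in this way was not computed, so the count cannot be read as particular to the members. On day 1 the ratio was 0.50 for Orc6, 0.46 for Dut, 0.40 for Prim1, 0.32 for Tyms, 0.30 for Rfc3 and 0.22 for Pcna and for Gins4. It was 0.21 for Gins2 and for Rfc4, 0.15 for Prim2, 0.0893 for Cdc45, 0.0868 for Rpa2 and 0.0377 for Rfc5. On day 2 all 13 were below 0, from -1.02 for Tyms to -0.02 for Dut and Prim2. On day 3 the ratio was 0.05 for Dut, -0.77 for Tyms, -0.66 for Orc6 and -0.52 for Prim1. Exon length moved with the day 1 ratio across the genes at 50 CPM or more. Matched on exon length, Gins4 and Rfc4 were below 0 on day 1 (-0.03 each), Prim2 and Dut were above 0 on day 2 (0.15 and 0.03), and the other 9 kept both signs.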

How the results depend on the processing

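No member passed an adjusted p of 0.05 in edgeR in any of the 3 comparisons, with 1 exception among the edgeR settings, genes at 50 CPM or more, which gave 1 member (Pold2) for day 3 against day 1. DESeq2 gave 12 members for dexamethasone, 2 for day 3 and 1 for day 2. The cause was not tested. Leaving out 1 plate in turn gave 0 to 0 called members in each comparison, a median dexamethasone log2 fold change from -0.60 to -0.25, and 36 to 40 members lower in sign. Some fold changes, none past the test, changed sign when 1 plate was left out. Orc6 ranged from -0.528 to 0.0743 (0.0743 without control day 3, 0.0622 without dexamethasone day 3). Gins4 ranged from -0.323 to 0.0542 (0.0542 and 0.0422 without the same plates) and Prim2 from -0.259 to 0.0624 (0.0624 and 0.0503 without the same plates). Pcna ranged from -0.316 to 0.0183 (0.0183 without dexamethasone day 2, 0.0171 without control day 2) and Dut from -0.0098 (without control day 1) to 0.253. The other 96 values of the main comparisons kept their direction and call. Matching on exon length and the counts by sign were chosen after seeing the data. The edgeR fit compares the treatments within days through its day term, and without that term the median was -0.44 with 0 members called. No paired analysis was possible because the replicate numbers are well positions, which pair no cells across plates. With 2 residual degrees of freedom the edgeR test has little precision.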

Other observations

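Among the genes at 50 CPM or more, the least like the replication score within plates included the nuclear noncoding RNAs Malat1, with a mean r of -0.51 over the 6 plates (from -0.82 to -0.38), and Neat1, with a mean of -0.35. Both were chosen after their values were seen. Cells of a plate share any plate effect, and no explanation was tested.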
